A study of Drosophila melanogaster with 16 samples.

Results

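Among the transcripts that fell between 10 and 40 days in the male fly heart, 206 of 16637 had young levels that were also uneven from one sample to the next, and these 206 are described here. They were chosen on measured values. On the log2 intensity scale the mean of the 40-day hearts lay at least 1 below the mean of the 10-day hearts, the 10-day mean was 8 or more, and the SD of the 10-day samples was 0.5 or more. 3 transcripts are left out by the rule, of which 1 met these limits.

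Cardiac tubes were dissected from adult males of the w1118, Canton S isogenic line, aged 40 or 10 days, and both ages shared this genotype and the same rearing. Each age had 4 biological replicates, named A to D, with 10 cardiac tubes pooled per sample. Samples are called 40A to 40D and 10A to 10D below. The RNA was amplified and hybridized to NimbleGen arrays, with a 40-day and a 10-day sample on each of 8 arrays in opposite dyes, so that every sample was measured once in Cy3 and once in Cy5. The level of a transcript is the mean log2 intensity of its probes, usually 8, over both dyes. A difference of 1 on this scale is a 2-fold difference.

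The fly heart is a thin muscular tube under the dorsal cuticle of the abdomen. Fat body, a liver-like storage and secretory tissue, lies around it together with pericardial nephrocytes and haemocytes, the blood cells. In males the testes, accessory glands and ejaculatory duct fill much of the same body cavity, and their genes, such as those for sperm tail proteins and seminal peptides, are among the most tissue-restricted of the fly. RNA from a hand-dissected tube is a bulk sample, in which fewer cells of a type and less RNA per cell cannot be told apart.

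The labels of the scanner files and the columns of the deposited value table do not give the same letter to the same array channel. Of the 16 columns, 8 followed the channel labelled for them, and 8 a channel labelled for a different replicate that matched in age and dye. The letters used here are those of the value table. Of the 10-day samples the same pairs of channels belong together in both sources, with B and C exchanged, whereas the 40-day channels are paired differently. The median intensity of a column lay between 70.4 and 99.9 and at most 30.0% of gene probes in a column exceeded the 95th percentile of random control probes. Set against that percentile (6.95 to 7.37 by sample on the log2 scale), 87 of the 206 members were above it in all 8 samples and 9 were at or under it in all 4 old samples. It was not exceeded by 13 members in 40A, 48 in 40B, 96 in 40C and 102 in 40D, against 11 in 10A, 3 in 10B, 0 in 10C and 1 in 10D. Values at or under it have no firm order, and falls that end there may be understated. None of the 14 listed heart identity genes was among the named transcripts, so the cardiac label could not be checked with them.

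Gene names were available for 93 of the 206 members, which are 90 genes. Only genes that the study called changed with age can be named, so the named members are not a sample of all of them. 15 members are on one of 13 lists of tissue markers, 6 of these on the testis list and 5 on the fat body list.

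The age difference was used to choose the members and is given as a description. It ran between -3.27 and -1.0004 with a median of -1.37 (a 2.59-fold lower level at 40 days), beside a median of 0.01 over all transcripts. The lowest member by 10-day level stood at 8.002, the median at 9.03 and the highest at 13.64. The SD of the 10-day samples ran between 0.50 and 3.05, with a median of 0.88 in members and 0.18 over all transcripts. The 10-day SD was used to choose as well. That limit favours wide young ranges, overlap of the ages and weak age tests, so the counts that follow are also description. In 169 of the 206 members the range over the 10-day samples was larger than the fall with age, and in 157 the ages overlapped. In the other 49 all 4 young samples lay above all 4 old ones, which held for 2.24% of all transcripts. With limma and Benjamini-Hochberg adjustment over all transcripts, 4 samples against 4, no member passed an adjusted p of 0.01 for lower levels at 40 days, where 0.0361% of all transcripts did, and 162 had an unadjusted p under 0.05, where 6.14% of all transcripts did. With the 8 array ratios taken as separate measurements limma called 21 members, a count that is too liberal because the ratios come from 4 samples per age, where 0.739% of all transcripts were called lower.

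The limits cut through a continuum. At the limit on the fall an unnamed transcript with a difference of -1.0004 lay just inside, and CG34445 and CG4691, with -0.995 and -0.990, lay just outside. At the limit on the 10-day level CG8813 was inside at a mean of 8.01, and unnamed transcripts at 7.98 were outside. CG1648 has a transcript on each side of the SD limit. The one left outside had a 10-day SD of 0.499.

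Most members shared their highest and lowest young sample. Sample 10B was the highest of the 10-day samples in 147 members, 10C in 33, 10A in 17 and 10D in 9. Sample 10A was the lowest in 152 members, and B was highest and A lowest in 141. The same sample was highest in both dyes for 190 of the 206, and the median number of a member's probes that gave that sample was 8 of 8. Sample 10B was also the highest for 46.3% of all transcripts, but for 25.7% of the 1788 other transcripts with a 10-day mean of 8 or more. The median deviation from the 10-day mean was 0.93 in 10B and -0.96 in 10A in the members, against -0.06 in 10B and -0.09 in 10A in those 1788 transcripts. The 1788 had no limit on the 10-day SD, so the size of the members' deviations was in part set by the rule. Of the 663 transcripts that met the limits on 10-day level and SD without such a fall, 199 were highest in 10B.

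The old hearts were uneven in the members as well, and this was not used by the rule. By limma's F-test over the 40-day samples, in which the difference between both dye measurements of a sample is the error, 192 of 206 members differed among the 40-day hearts at an adjusted p of 0.01. Over all transcripts 22.8% passed, and over the other transcripts with a 10-day mean of 8 or more 71.5% did. Of the 663 transcripts that met the limits on 10-day level and SD but did not fall that far, 90.0% passed (median 10-day SD 0.67, against 0.88 in members), so that the share in members (93.2%) was near theirs. Without sample 40A the count of members was 123, and 3340 of all transcripts passed, beside 3798 with all 4 samples. With channels given the letters of the scanner labels 0 members, and 0 of all transcripts, were called. The test compares these 4 samples, not conditions.

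The sample that was highest at 40 days went with the sample that was highest at 10 days. Sample 40A was the highest old sample in 148 members, 40C in 30, 40D in 18 and 40B in 10. Of the 147 members that were highest in 10B, 135 (91.8%) were highest in 40A. Over all 206 members it was 135 (65.5%), against 3.91% of the other transcripts with a 10-day mean of 8 or more. Of the 459 other transcripts with a 10-day mean of 8 or more that were highest in 10B, 70 (15.3%) were highest in 40A. Among the transcripts with uneven young levels and no such fall it was 39 of 199 (19.6%), and of the 28 falls with an even young level 1 had this pair of highest samples. These shares are descriptions, without a test. Samples 10B and 40A shared no array, since 10B was hybridized with 40C and 40D, and 40A with 10A and 10D.

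**Figure D1:**
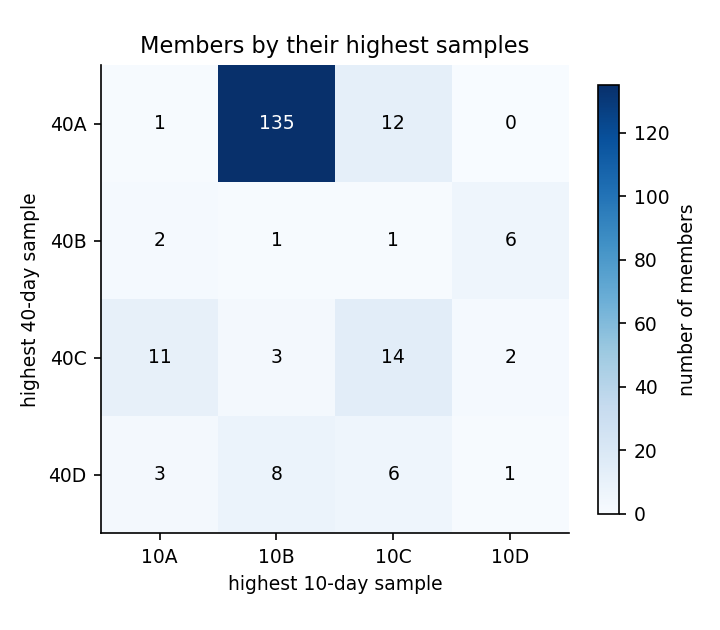
Number of members by the 40-day sample (rows) and the 10-day sample (columns) in which each was highest. The cell of 40A and 10B holds 135 of the 206 members.

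Sorted by which samples were high, most members fell into 4 profiles, drawn after the values had been seen and given without tests. The largest had 10B and 40A highest (135 transcripts). In 29 transcripts 10A and 10C were the highest young samples. In 11 transcripts 10B and 10C were the highest young samples and 40C and 40D the highest old ones. In 9 transcripts 10D was the highest young sample. The remaining 22 had other orders. The ages did not overlap in 23 of the 135, 7 of the 29, 2 of the 11, 4 of the 9 and 13 of the 22.

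**Figure D2:**
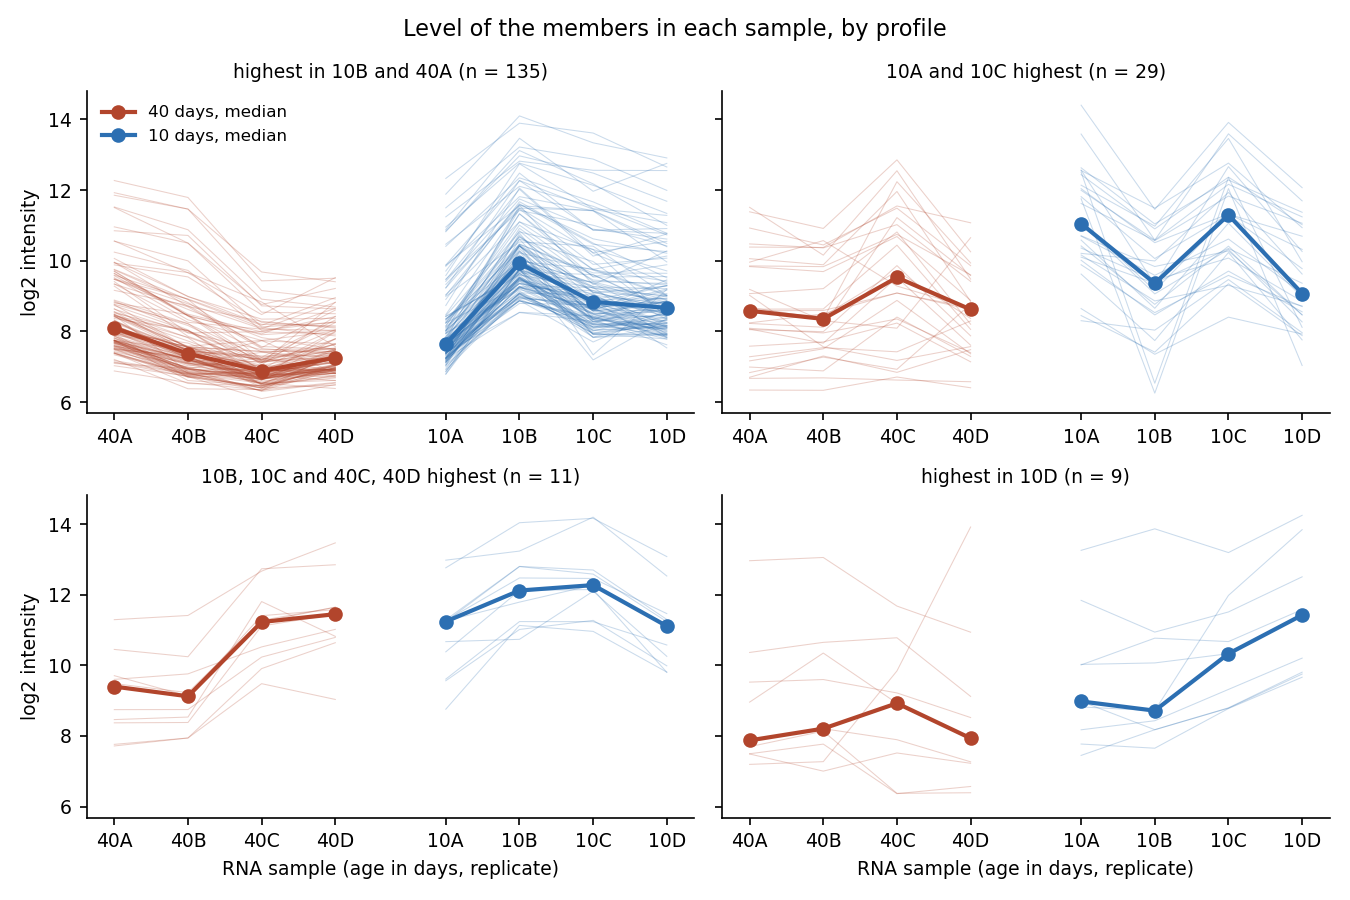
Level (log2 intensity) of each member (thin lines) in the 40-day samples (red) and the 10-day samples (blue), for 4 profiles, with the median over members as thick lines. In the 135 members of the first panel the median of 10A (7.65) lies below that of 40A (8.10), and the peak at 10B is 9.93.

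The profile with 10B and 40A highest held most of the named genes (52 transcripts). Its median levels were 8.10 in 40A, 7.37 in 40B, 6.88 in 40C and 7.25 in 40D, against 7.65 in 10A, 9.93 in 10B, 8.84 in 10C and 8.67 in 10D. In 40C 84 of the 135, and in 40D 81, were at or under the 95th percentile of control probes, as against 5 in 40A and 37 in 40B, so the order of 40C and 40D is not firm. The level of 40A was at or above that of 10A in 111 of the 135 members. The median gap between the young samples 10B and 10A was 2.19, or 4.56-fold, whereas the median fall with age was -1.37, or 2.58-fold. In 112 of the 135 the ages overlapped. Within single arrays the median log2 ratio of 40 over 10 days was 0.27 where 40A met 10A and -0.28 where 40B met 10A, but -3.27 where 40C, often at the control level, met 10B.

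CG7045 (tHMG1), named as a testis member of the HMG-box family of chromatin proteins, had the largest fall of all transcripts on the array. It measured 9.93, 9.67, 8.83 and 7.57 in 40A to 40D, against 10.88, 13.47, 11.97 and 12.76 in 10A to 10D. The ages did not overlap, but the young samples spanned 5.99-fold, beside a mean difference of -3.27 (a 9.63-fold lower level at 40 days). Its neighbour on arm 3R, CG7046 (tHMG2), measured 9.48, 8.92, 8.17 and 8.96 in the old samples, against 9.23, 12.27, 10.87 and 10.91 in the young. Here sample 10A lay within the range of the old hearts. The sequences of the 2 genes are related, and probes may not separate their RNAs fully.

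Mst84Dc, of a family of male-specific sperm tail proteins, measured 11.52, 10.88, 8.91 and 8.69 in 40A to 40D, against 11.50, 13.22, 12.88 and 11.99 in 10A to 10D. Sample 40A was level with 10A, and 40C and 40D lay far below both. Among the old samples it spanned 7.13-fold (limma F-test, adjusted p = 2.4e-14). CG17567, an uncharacterised gene with one of the highest levels, measured 11.93, 11.46, 9.68 and 9.40 at 40 days, against 12.33, 13.89, 13.62 and 12.65 at 10 days. Its ages did not overlap and the order of the samples was that of Mst84Dc. CG31226 (difference -2.35), CG15219 (-2.23 and -2.16 in 2 transcripts) and CG31468 (-2.23) were the other named genes of this profile with falls among the 10 largest.

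The uncharacterised gene CG31948 had the widest young spread of the named members of this profile. It measured 7.75, 7.22, 7.73 and 7.65 in 40A to 40D, against 8.01, 11.33, 9.74 and 9.42 in 10A to 10D. The old samples were nearly even here and 10A lay just above them. CG12784 showed a like course, with 8.27, 7.47, 7.23 and 7.45 at 40 days, against 8.32, 10.68, 9.45 and 9.31 at 10 days. CG13245 measured 10.96, 10.50, 8.76 and 9.22 at 40 days, against 10.84, 12.97, 12.48 and 11.68 at 10 days, so that 40A lay above 10A while 40C and 40D lay lowest.

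Other named genes of this profile were chosen after their values were seen. CG18193 (COX7AL), a second copy of a cytochrome c oxidase subunit, measured 9.52, 8.33, 7.74 and 8.01 in 40A to 40D, against 9.23, 11.61, 10.47 and 10.26 in 10A to 10D. Grx-1 (Grx1t), a glutaredoxin, measured 8.37, 8.03, 6.67 and 6.94 at 40 days, against 8.42, 9.60, 9.24 and 8.83 at 10 days. In COX7AL sample 10A lay below 40A, and in Grx1t they were nearly level. CG6888 (Prx1), a peroxiredoxin, differed by -1.61 and Tim13, a chaperone of mitochondrial protein import, by -1.33. Atg8b, a ubiquitin-like protein of autophagy, differed by -1.53, and Cdlc2, a dynein light chain, by -1.38.

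**Figure D3:**
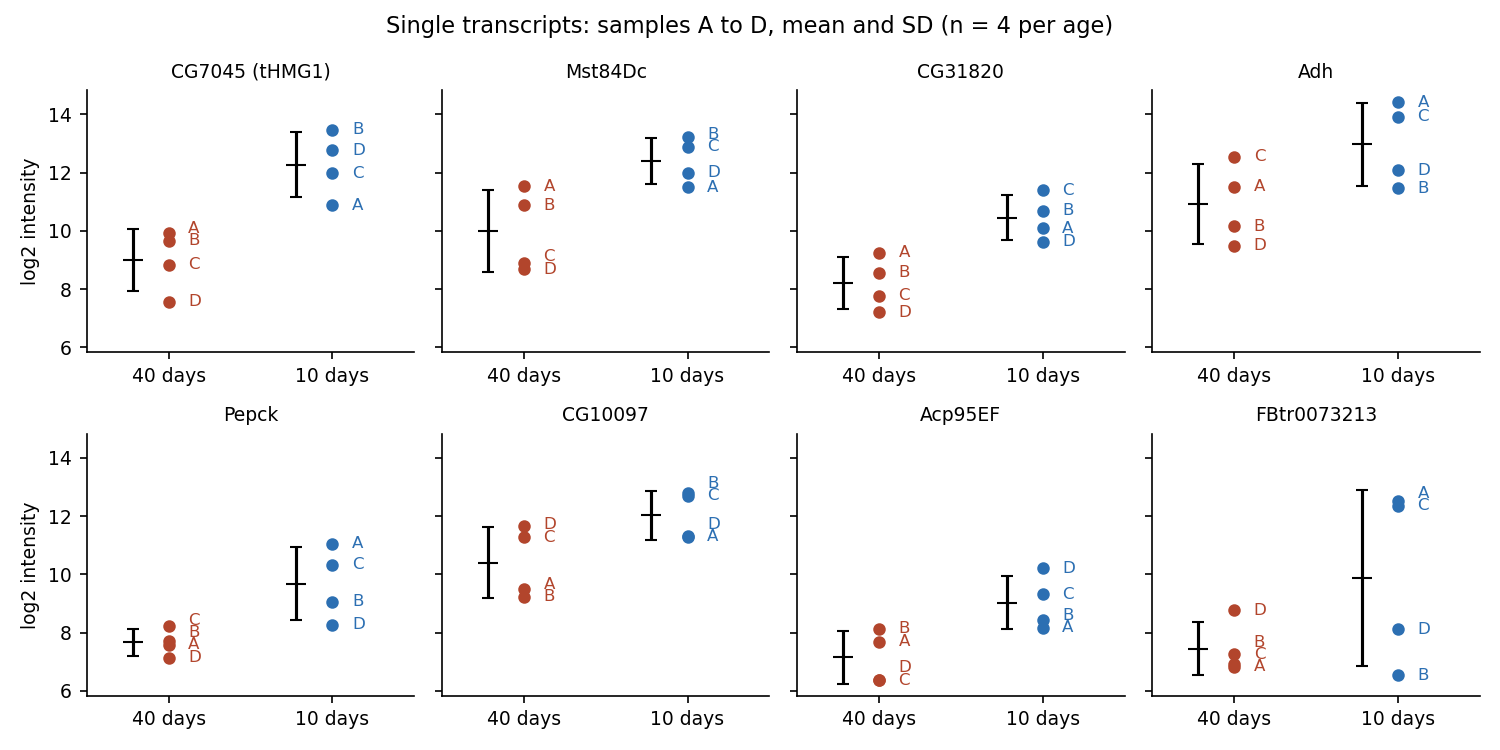
Level (log2 intensity) of 8 members in the 4 samples of each age (points, letters A to D) with the mean and SD (n = 4 per age) at the left of the points. The letter at the top changes between genes: B in CG7045 and Mst84Dc at 10 days, A in Adh and Pepck, and D in Acp95EF.

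The testis list could be followed in 10 of its 39 genes, of which 6 were members. Sperm leucylaminopeptidases were represented by loopin-1 and CG6372 (S-Lap1). Loopin-1 measured 7.76, 7.12, 7.41 and 7.25 in 40A to 40D, against 7.72, 9.35, 8.96 and 8.42 in 10A to 10D. CG6372 measured 7.25, 6.77, 7.40 and 7.05 at 40 days, against 7.37, 9.74, 8.90 and 7.94 at 10 days. Both had 10B highest and 10A inside the range of the old samples.

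The gene soti, which acts in the individualization of sperm by restraining a ubiquitin ligase, measured 7.02, 6.59, 7.07 and 6.27 in the old samples, against 6.95, 9.06, 7.98 and 8.34 in the young. Its 4 old values and 10A were at or under the 95th percentile of control probes. Mst98Cb, a further sperm tail gene, measured 9.09, 8.14, 7.98 and 7.55 at 40 days, against 9.14, 10.57, 10.80 and 9.78 at 10 days. Its neighbour Mst98Ca differed by -1.03 with the same young order at the top, 9.05 in 10C and 8.16 in 10B. The pair have related sequences and are not separate evidence.

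The 4 listed testis genes that were not members lay under the rule's 10-day level of 8. They could be named only because the study called them changed with age in these same arrays, so they are not an unselected view. Mst77F, which encodes a chromatin protein of the sperm head, measured 6.71, 6.27, 6.95 and 6.29 in 40A to 40D, against 7.06, 7.86, 8.35 and 7.11 in 10A to 10D. Mst33A, CG4439 (S-Lap8) and ACXC, an adenylyl cyclase, were each highest in 10B of the young samples, at 7.53, 8.04 and 7.43. The mean of the 4 was 6.63, 6.33, 6.51 and 6.45 in 40A to 40D, against 6.64, 7.72, 7.31 and 7.09 in 10A to 10D. The order of the young means was B, C, D, A, as for the medians of the 10B and 40A profile. Sample 10B was the highest young sample for 46.3% of all transcripts. All 16 old values of these 4 genes and 9 of the 16 young ones were at or under the 95th percentile of control probes. The old values thus have no order, and the young order below 10B is not firm. The highest old sample differed among these 4 genes. Their median difference was -0.63, with 0 of 10 listed genes called by limma at an adjusted p of 0.01 in either direction. Summed over the whole list, intensity ran between 1433 and 4574 in the old samples, against 4570 and 14240 in the young. This sum includes the 6 members, chosen because they fell. Over the 4 other genes it ran between 325 and 407 in the old samples, against 411 and 853 in the young. The part of testis RNA in the members' levels was not tested.

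Names of cDNA clones in the RefSeq gene table (assembly Release 6) give a feature that the rule did not use. Of 86 named member genes found there, 22 (25.6%) carried a clone name of the testis libraries (prefixes AT or bs), against 55 of 380 other named genes that were lower at 40 days (14.5%), 5 of 613 named genes that were higher (0.82%) and 2.81% of all protein-coding genes. Clone names of adult head libraries (prefixes GH or HL) were found for 8 member genes (9.3%). They were found for 17 of the 380 other named genes that were lower at 40 days (4.47%), 26 of the 613 that were higher (4.24%) and 2.88% of all. Head clone names were thus also more frequent in members than in these sets. By profile a testis clone was found for 14 of 48 genes of the 10B and 40A profile, 2 of 16 with 10A and 10C highest, 0 of 4 in each of the 2 smallest profiles and 6 of 14 with other orders. By position 26 of the 86 lay on 3R, 23 on 2L, 19 on 2R, 14 on 3L and 4 on X. The share on X was 4.65%, against 15.7% of all protein-coding genes and 12.1% of the other named genes that were lower at 40 days. All of these are descriptions of named genes, without a test.

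The 29 members with 10A and 10C highest among young hearts held 4 of the 5 members on the fat body list. Their median levels were 8.58 in 40A, 8.35 in 40B, 9.53 in 40C and 8.62 in 40D, against 11.05 in 10A, 9.36 in 10B, 11.30 in 10C and 9.07 in 10D. Where 40C met 10B on 1 array the median log2 ratio was 0.24, whereas where 40A met 10A it was -2.34. The median was below 0 on the 7 arrays other than that of 40C and 10B. A low 10B with a high 40C was not particular to the listed fat body genes. Of the 3 named muscle genes, none a member, TpnC73F measured 7.08, 7.36, 8.20 and 6.65 in 40A to 40D, against 8.37, 7.44, 8.36 and 8.10 in 10A to 10D. TpnC47D (difference -1.74) was also lowest in 10B and highest in 10C and 40C, whereas Act88F differed by 0.27. Unlike the median of the profile, 10D was not low in TpnC73F or TpnC47D. In TpnC47D it stood at 9.06, level with 10A at 9.06.

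Adh, the alcohol dehydrogenase, measured 11.51, 10.16, 12.55 and 9.48 in 40A to 40D, against 14.40, 11.45, 13.92 and 12.07 in 10A to 10D. The old samples 40C and 40A lay above the young sample 10B. The young samples spanned 7.73-fold and the old ones 8.39-fold, beside a mean difference of -2.04. Pepck, which makes phosphoenolpyruvate for new sugar, measured 7.58, 7.70, 8.24 and 7.14 at 40 days, against 11.05, 9.06, 10.32 and 8.27 at 10 days. The ages did not quite overlap, with 10D beside 40C.

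Tsf1, an iron-binding transferrin of the haemolymph, measured 9.85, 9.83, 10.75 and 9.60 in the old samples, against 12.44, 10.90, 12.37 and 11.02 in the young. Lsp2, a storage protein of larval and adult blood, measured 6.34, 6.33, 6.71 and 6.40 at 40 days, against 8.45, 7.41, 9.35 and 7.88 at 10 days. The 4 old values of Lsp2 did not exceed that 95th percentile of controls (6.95 to 7.37 by sample), so its fall may be understated. CG8193 (PPO2), the prophenoloxidase of crystal cells, measured 6.67, 6.68, 6.62 and 6.57 at 40 days, against 8.65, 7.35, 8.40 and 7.92 at 10 days, and was likewise at the control level in the 4 old samples.

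Further named genes of this profile were chosen after their values were seen. Inos, which makes inositol phosphate, differed by -1.24, CG7580 (UQCR-Q), a subunit of respiratory complex III, by -1.18, and Tal (Taldo), the transaldolase of the pentose phosphate pathway, by -1.09. Mpcp (Mpcp2), the mitochondrial phosphate carrier, differed by -1.07 and colt, the carnitine carrier, by -1.06. Pdk, the kinase that restrains pyruvate dehydrogenase, measured 8.57, 8.43, 9.71 and 8.37 in 40A to 40D, against 10.71, 9.84, 10.28 and 8.47 in 10A to 10D. Its young sample 10D lay with 3 of the old samples and its old sample 40C with the young.

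Met75Ca, listed for the ejaculatory duct and bulb, had the same pair of high young samples but 40A as its highest old one, with 9.02, 7.56, 7.18 and 7.57 in 40A to 40D, against 10.58, 8.65, 11.06 and 8.97 in 10A to 10D. The 2 members with the largest SD among young samples belonged here and have no gene name. FBtr0073213 measured 6.83, 7.27, 6.93 and 8.77 in 40A to 40D, against 12.51, 6.53, 12.36 and 8.11 in 10A to 10D. FBtr0075024 measured 6.70, 7.30, 6.84 and 7.48 at 40 days, against 11.75, 6.25, 12.04 and 7.03 at 10 days. In both, 10A and 10C lay far above all 4 old samples. Samples 10B, 40A and 40C were under the 95th percentile of control probes in both, and 10D was so in FBtr0075024. The order among these samples is therefore not firm. Against that percentile in 10B, the young samples spanned at least 37.8-fold in FBtr0073213 and at least 27.3-fold in FBtr0075024.

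The fat body markers did not all share this profile. Obp99a, an odorant-binding protein made in fat body, was a member of the 10B and 40A profile, with 7.90, 7.58, 7.74 and 6.81 in 40A to 40D, against 8.23, 10.47, 9.60 and 8.66 in 10A to 10D. Of the 6 listed fat body transcripts that were not members, CCHa2, a nutrient-dependent peptide hormone, measured 9.39, 9.69, 8.29 and 8.61 at 40 days, against 10.89, 10.40, 10.85 and 10.87 at 10 days. Both transcripts of regucalcin, a calcium-binding protein, fell (differences of -1.78 and -1.27, limma adjusted p = 0.00182 for each) with 10-day SDs of 0.22 and 0.11. Rfabg (apolpp), the lipid carrier of the blood, and fit, a satiety peptide, differed by 1.30 and 2.12, with higher means at 40 days, and were not called.

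The mean of these 6 transcripts was 9.94, 9.79, 9.26 and 9.13 in 40A to 40D, against 9.63, 9.74, 9.58 and 9.75 in 10A to 10D. It did not show the high 10A and 10C of the members, but the rule had a part in this. CCHa2 and both regucalcin transcripts met its limits on fall and level. They stayed outside the members only by 10-day SDs of 0.23, 0.22 and 0.11, so their even young levels were set by the choice. Summed over the whole fat body list, intensity ran between 5732 and 13260 in the old samples, against 14790 and 39010 in the young, with the 5 members, chosen because they fell, included. Over the 6 other transcripts it ran between 3905 and 8571 in the old samples, against 7956 and 9911 in the young. On the haemocyte list, with 6 of 12 genes named, the sum without CG8193 ran between 1094 and 1199 in the old samples, against 1035 and 1446 in the young. The genes in this sum went both ways. NimC4 (difference 2.20, limma adjusted p = 0.00127) and crq (0.67) were higher at 40 days, whereas Hml (-1.51), Sr-CI (-0.69) and Pxn (-0.28) were lower. The part of fat body or blood cell RNA in the members' levels was not tested beyond these values.

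**Figure D4:**
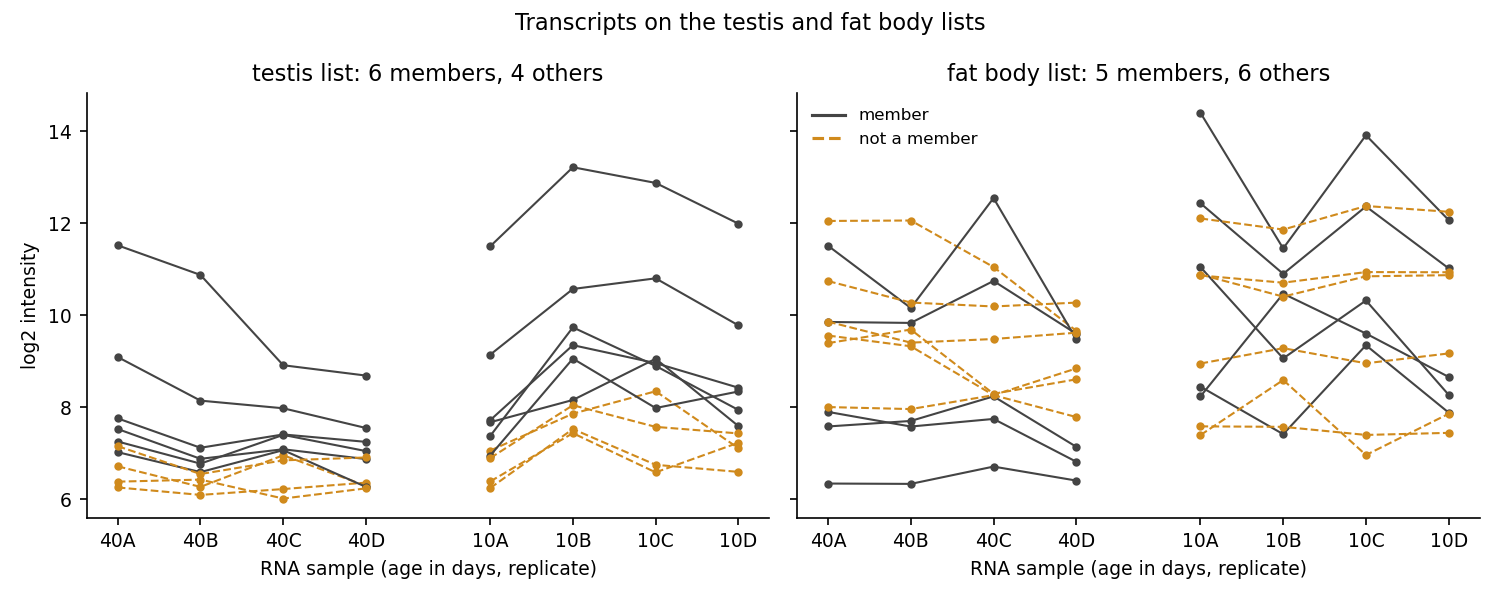
Level (log2 intensity) in each sample of the transcripts on the testis list (left) and the fat body list (right), with members as solid lines and other listed transcripts as dashed lines. On the left the dashed lines are lowest in 10A among young samples in the mean (6.64) and highest in 10B (7.72). Of their 16 young values 9 are at or under the 95th percentile of control probes. On the right the dashed lines run flat from 10A to 10D in the mean (9.58 to 9.75), where the rule leaves no uneven fall from a level of 8 or more.

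The 11 members with 10B and 10C highest at 10 days and 40C and 40D highest at 40 days included 5 named transcripts. CG10097, annotated as a fatty acyl-CoA reductase, measured 9.48, 9.23, 11.27 and 11.64 in 40A to 40D, against 11.29, 12.80, 12.70 and 11.30 in 10A to 10D in 1 of its 2 member transcripts. Samples 40C and 40D were level with 10A and 10D, and 40A and 40B lay below. CG9459, a fatty acid elongase, measured 8.75, 8.75, 10.23 and 10.79 at 40 days, against 9.61, 11.24, 11.24 and 10.58 at 10 days. CG13091 (Sgp) and Lectin-galC1, a galactose-binding lectin, differed by -1.92 and -1.69 and their ages did not overlap. In these 11 members the median level over the old samples was 9.40, 9.12, 11.23 and 11.45 in 40A to 40D. Limma's F-test called all 11 different among the old hearts, but the profile was drawn by its high 40C and 40D. The calls therefore add no support. Of the 663 transcripts with uneven young levels and no such fall, 90.0% passed the same test.

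The 9 members with 10D highest included the only named accessory gland gene. Acp95EF, a seminal peptide of that gland, measured 7.70, 8.14, 6.38 and 6.39 in 40A to 40D, against 8.17, 8.43, 9.32 and 10.20 in 10A to 10D. Sample 10A lay beside 40B, and 10D was 4.08-fold above 10A. Cpr65Au, a cuticle protein, measured 7.49, 7.005, 7.52 and 7.23 at 40 days, against 7.45, 8.18, 8.79 and 9.75 at 10 days. CG34172 (COX7AL2), a further cytochrome c oxidase subunit copy, measured 10.36, 10.65, 10.78 and 9.12 at 40 days, against 11.84, 10.94, 11.51 and 12.50 at 10 days. An unnamed transcript of this profile, with one of the 10 largest young SDs, measured 7.20, 7.27, 9.84 and 13.92 at 40 days, against 8.82, 8.72, 11.98 and 13.84 at 10 days, so that 40D was as high as 10D and the order of C and D over A and B was shared by both ages. Of the 28 accessory gland genes on the list 1 was named, so that a common course of that tissue's genes could not be followed.

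Among the 22 members with other orders, a run of genes had 10C above 10B and 40A highest. CG31820 measured 9.24, 8.57, 7.77 and 7.21 in 40A to 40D, against 10.10, 10.68, 11.39 and 9.63 in 10A to 10D. Its ages did not overlap, and its old order from A down to D was the same as in Mst98Cb. CG33340 (difference -1.77), Dpy-30L2 (-1.71) and both transcripts of CG17376 (-1.83 and -1.55) followed the same old order, with 40C and 40D level in 1 of the CG17376 transcripts. Catsup, a membrane protein of zinc transport, was an exception in this remainder, with 6.93, 6.44, 6.09 and 6.34 at 40 days, against 9.09, 8.14, 7.84 and 8.55 at 10 days. It was highest in 10A of the young samples, and its 4 old values were at or under the 95th percentile of control probes.

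Ratios within single arrays come from the same columns that were averaged to choose and sort the members, so they are not a second view of the profiles. Over the 206 members the median log2 ratio of 40 over 10 days was 0.05 where 40A met 10A, -0.43 where 40B met 10A, -1.54 where 40B met 10C and -1.94 where 40C met 10C. It was -2.76 where 40C met 10B, -2.35 where 40D met 10B, -1.41 where 40D met 10D and -0.55 where 40A met 10D. Over all transcripts these medians lay between -0.01 and 0.03. The count of members with a ratio below 0 was 97 of 206 where 40A met 10A and 206 of 206 where 40C met 10C. Over all 16637 transcripts it was 7824 and 8306 on these arrays.

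**Figure D5:**
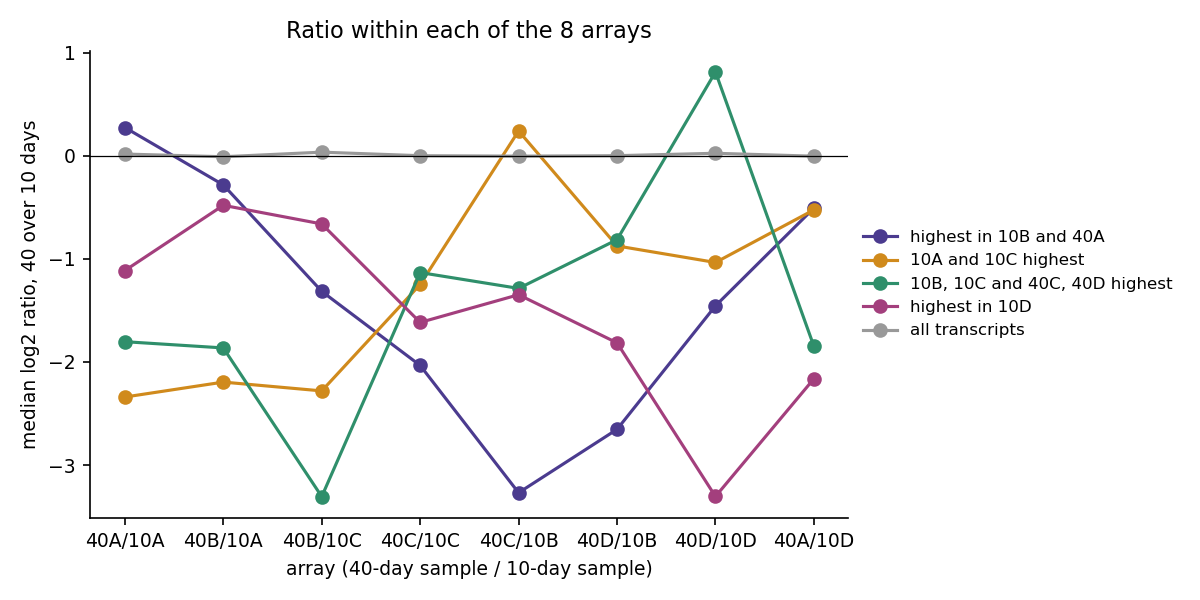
Median log2 ratio of 40 over 10 days within each of the 8 arrays, named by the 40-day and the 10-day sample it held, for the 4 profiles and for all transcripts. The profile highest in 10B and 40A runs between 0.27 and -3.27, and the profile with 10A and 10C highest between 0.24 and -2.34, while all transcripts stay near 0.

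Of the 4 replicate letters, leaving out B kept the fewest members. When replicate B of both ages was left out, 136 transcripts met the limits and 108 of these were among the 206. Without replicate A 237 transcripts met them, with 161 shared, without C 187, with 152 shared, and without D 220, with 177 shared. The Cy3 columns alone kept 103 of the 206, and the Cy5 columns alone gave 367 transcripts, 201 of them shared.

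The size of a fall also rested on single letters. Of the 64 transcripts named or chosen by rule, 18 had a difference over 1.5 times smaller or larger when a letter was left out. Without B the difference was -0.55 in CG9459, -0.96 and -0.93 in the CG10097 transcripts, -0.84 in CG6372 and -1.35 in CG31948. Without D it was -0.83 in CG34172, -1.24 in Acp95EF and -0.80 in Cpr65Au. Without A it was -0.69 in Pdk and -1.34 in FBtr0073213, and without C it was -1.18 in FBtr0075024.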

How the data were processed

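Gene expression was measured on 2-colour NimbleGen arrays (8 arrays, 1 slide) in 8 RNA samples of cardiac tubes. The authors deposited scanner intensities written by NimbleScan 2.5.26 without normalization, and a table of linear intensity values that they had normalized by lowess. The genome build of the probe design is not given in the sources used here. Value-table intensities were taken as log2, averaged over probes per transcript and over the 2 dye columns of a sample. Columns were matched to scanner channels by correlation. Tests used limma 3.58.1 (R 4.3.3, statmod 1.5.0) with Benjamini-Hochberg adjustment over 16637 transcripts at 0.01: 4 samples against 4 between ages, and an F-test with a dye term among the samples of an age. Summaries and plots used pandas 2.3.3, numpy 2.4.6, scipy 1.17.1 and matplotlib 3.10.9 under Python 3.11.15. On simulated data the comparison of 40 and 10 days over 16637 transcripts recovered 58% of 100 changes of 1 and 89% of 100 changes of 2, with 1 false call. The simulated spreads were drawn from all transcripts (median 10-day SD 0.18, against 0.88 in members), so this recovery does not apply to the members. For the F-test among 40-day samples, changes of 1 and 2 were simulated in 40A alone. It found 15% and 90% of these, with 0 false calls. Precision on age is limited by the 4 RNA samples of each age, since the 8 arrays measured the same samples in both dyes.

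Transcript numbers were named by matching probe means to the study's gene list within 0.0006%. Of 1114 genes listed, 1042 matched a single transcript and 59 a pair, and after shuffling 0 matched. Where a second list named the same transcript, 627 of 654 names were the same gene. RefSeq symbols are given in brackets.

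Members and marker lists were chosen with earlier results of these data known. Named by rule were the 10 largest falls, the 10 largest 10-day SDs (some without a name are given as unnamed), the 5 highest 10-day levels, members on a marker list, listed testis and fat body genes outside the members, and transcripts at the limits, with at most 2 without a gene name. CG7046, CG18193, CG34172, CG6888, Grx-1, Tim13, Atg8b, Cdlc2, CG31948, CG12784, CG13245, Inos, Pdk, colt, Mpcp, CG7580, Tal, CG13091, Lectin-galC1, CG10097, CG9459, CG17376, Dpy-30L2, Catsup and CG33340 were chosen after their values were seen. The 13 lists cover testis, accessory gland, ejaculatory duct and bulb, fat body, oenocyte and cuticle, haemocyte, nephrocyte, heart identity, muscle, neuron, gut, Malpighian tubule and yolk protein. Besides those described, single listed genes were members for the duct and bulb, accessory gland and cuticle lists, none of the 3 named muscle genes, 2 gut genes and 1 gene each of nephrocyte, neuron and Malpighian tubule was a member, and no yolk protein gene was named. Protein length was not analysed here.

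Alternatives were median centring, quantile normalization and the 8 array ratios (both added after the data were seen), scanner intensities corrected with normexp (offset 50), loess and Aquantile, the median of probes, single dyes, other SD limits, a replicate block, a trended robust prior, a filter on dim transcripts, no dye term, the letters of the scanner labels, and leaving out each replicate.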

Additional observations from a re-analysis of the deposited data

Results flagged for a closer look

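1 of 128 groups of 4 samples checked among the named members had a sample far from the other 3 by Dixon's ratio (above 0.829). Pdk stood at 9.71 in the 40-day replicate C, whereas the other 40-day samples lay between 8.37 and 8.57, a ratio of 0.85. Chance flags about 1 in 20 such groups.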

How the results depend on the processing

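The number of transcripts meeting the limits was 206, and it was 105 in the Cy3 columns alone (103 shared) and 367 in the Cy5 columns alone (201 shared). Leaving out one replicate letter gave 136 to 237. Centring, scanner intensities, the median of probes, SD limits of 0.4 and 0.6 and quantile normalization gave 180 to 227. Against age, 0 members were called in 4 against 4 samples at 0.01, and 2 at 0.05, 1 with dim transcripts left out and 21 with the 8 array ratios. With the replicate block, 0 were called (153 at an unadjusted p under 0.05), and leaving out replicates gave 0 to 0. Over all transcripts 6 were called lower at 40 days, 0 with the block, and 0 to 123 under all of these alternatives. The letters do not pair the samples, since the correlation of deviations between same-lettered samples was -0.19 for A, -0.03 for B, 0.47 for C and 0.25 for D, and the highest correlation of each young sample was with its own letter for C and D but not for A and B. The 192 members that differed among old hearts became 123 to 191 when one old sample was left out, with 2054 to 3756 transcripts called in all. Without 40A it was 123 members and 3340 transcripts. Without the dye term 151 members were called (1839 transcripts in all, beside 3798). With the letters of the scanner labels 0 members were called (of 0 transcripts in all). Those letters average channels that the value table gives to different samples. 10B was the highest young sample in 130 to 153 members under 5 alternatives, beside 147. With members counted in, the median difference was -1.13 for the testis list, -1.73 for the fat body list and -0.48 for the haemocyte list, beside -0.63, -0.38 and -0.28 without them, and leaving out replicates gave -0.89 to -0.43, -0.41 to -0.35 and -0.37 to -0.18. The differences of 64 transcripts kept their sign in 448 of 448 comparisons with an alternative and moved by less than 1 SD between samples, a wide yardstick because members were chosen for a large SD. 18 of the 64 moved by over 1.5 times when a replicate was left out, the smallest to -0.52.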
